A study of Mus musculus with 18 samples.

Results

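The KZFP/rGUs outside clusters were the members of a list of mouse KZFP genes and related genetic units that stood alone or in small local groups. A KZFP/rGU is a stretch of DNA that encodes C2H2 zinc fingers and belongs to a KRAB zinc finger protein (KZFP) gene, or to a pseudogene or other unit related to one. The list used here, given with the study beside its expression counts, has 560 such elements with mm9 coordinates. The study worked from a larger merged set, and its other elements were not analysed here, so that an element counted as outside may have further neighbours. Elements less than 500 kb apart were joined, and 379 elements fell into 16 clusters of at least 8. Of the other elements, 175 lay on autosomes and are described here, and 6 lay on chromosome X. The 175 elements were spread over all 19 autosomes in 88 local groups. There were 52 single elements and 123 in 36 groups of 2 to 7. At the edge of the rule, the largest of these groups held 7 elements and the smallest clusters held 8.

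Peaks of 6 ChIP-Seq libraries were set against these elements. KAP1 and SETDB1 were immunoprecipitated from WT Hepa 1.6 cells, a hepatoma line from a C57L mouse. H3K9me3 and H3K27ac were immunoprecipitated from embryonic fibroblasts (MEF) of strain C57BL/6 (C57BL/6J in the study's methods), from WT cells that carry Kap1 loxP/loxP and from Kap1 KO cells. Age is given as embryonic for both genotypes. For RNA-Seq, the study grew a selected Kap1 KO clone over many passages beside its non-excised WT counterpart, and the sources used here do not say whether the ChIP-Seq used the same clone. Each condition had 1 library, so that no spread between libraries could be measured and no test between genotypes was possible. KAP1 and H3K9me3 were thus measured in different cell types. The lists gave a score per peak and no read counts, so that depth is unknown, and signal under the authors' threshold may be present where no peak is listed. The SETDB1 list repeated 2957 of the 13366 KAP1 peaks and held no peak of its own, so that it is read here as a subset of the KAP1 peaks. Shares carry exact Clopper-Pearson 95% intervals, which cover counting error over elements or genes only. For a count of 0, the share that 3 counts of the total would give is printed as a limit, with the exact upper bound beside it.

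KZFPs bind DNA through arrays of C2H2 fingers and recruit KAP1 (the product of Trim28) through the KRAB domain. KAP1 brings in the methyltransferase SETDB1, which trimethylates H3K9, a mark of repressed chromatin, whereas H3K27ac marks active promoters and enhancers. KAP1 and H3K9me3 are known to sit on the last exons of KZFP genes, where the fingers are encoded. The finger-coding repeat is short, and consecutive fingers are joined by a conserved linker.

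An exon of a protein-coding gene lay under 128 of the 175 elements, or 73.1%, and each had a different host gene. Another 34 elements lay between annotated genes, 10 in an exon of a gene not annotated as protein-coding, and 3 in an intron. The share in coding exons was 54.4% for the elements inside clusters (206 of 379). The elements were 57 to 3077 bp wide, with a median of 776 bp, against 1217 bp inside clusters. In the host genes, the middle of the element lay a median of 11874 bp downstream of the gene start and 1525 bp before the 3' end. Of the 128 host proteins, 123 had at least 1 match to the C2H2 pattern, with a median of 11 matches and up to 33. The annotation of these genes therefore fitted the label of zinc finger genes for nearly all of them. The short letter string DVMLE of the KRAB A box was present in 38 of them.

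The finger-coding sequence itself is shown for 10 host genes, to let the repeats under the peaks be compared. Each unit of 84 bases runs from the codon of the first cysteine of a finger to the end of the linker, read on the strand of the gene in mm9, with the codons of the metal-binding cysteines and histidines in capitals. The first 4 are the best H3K9me3-marked host genes in which an intact finger could be read, the next 5 are the best KAP1-marked ones not yet shown, and Zfp62 is the host gene without either peak that had the highest expression in WT MEF. The finger nearest the middle of the peak was taken, or of the element for Zfp62. Those of Zfp629, Zscan2 and Zfp46 lie under the peak but outside the listed element.
Zfp90, chr8:108949042-108949125, plus strand: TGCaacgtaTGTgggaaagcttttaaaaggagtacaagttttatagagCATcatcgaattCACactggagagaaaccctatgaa
2610008E11Rik, chr10:78529981-78530064, minus strand: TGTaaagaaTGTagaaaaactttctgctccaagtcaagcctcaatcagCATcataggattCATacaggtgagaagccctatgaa
Zfp930, chr8:71752619-71752702, plus strand: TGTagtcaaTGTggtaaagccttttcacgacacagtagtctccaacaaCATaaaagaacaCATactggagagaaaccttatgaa
Zfp286, chr11:62593269-62593352, minus strand: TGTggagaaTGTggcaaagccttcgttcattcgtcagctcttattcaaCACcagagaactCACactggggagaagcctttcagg
Zfp629, chr7:134755112-134755195, minus strand: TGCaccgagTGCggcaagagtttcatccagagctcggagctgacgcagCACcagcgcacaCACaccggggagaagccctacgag
Zscan2, chr7:88020760-88020843, plus strand: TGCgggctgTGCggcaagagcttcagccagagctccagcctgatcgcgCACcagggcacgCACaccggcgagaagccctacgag
Zfp11, chr5:130163845-130163928, minus strand: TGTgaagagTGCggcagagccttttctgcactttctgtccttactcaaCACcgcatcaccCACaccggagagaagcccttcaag
Zfp46, chr4:135846471-135846554, plus strand: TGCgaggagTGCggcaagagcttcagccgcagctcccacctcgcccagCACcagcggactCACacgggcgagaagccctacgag
Zfp12, chr5:144006883-144006966, plus strand: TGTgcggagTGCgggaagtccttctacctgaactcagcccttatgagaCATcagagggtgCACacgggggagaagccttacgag
Zfp62, chr11:49030137-49030220, plus strand: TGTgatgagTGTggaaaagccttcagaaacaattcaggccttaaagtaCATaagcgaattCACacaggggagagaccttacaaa

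Over the 45 pairs, these units had a median identity of 60.7% (50% to 81%), and 24 of the 84 positions held the same base in all of them. The most similar pair was Zscan2 and Zfp46. Their units held 67.9% G and C, and that of Zfp629 held 63.1%. The units of Zfp90 and Zfp930 both held 38.1%, and that of 2610008E11Rik held 39.3%. Base composition is followed up below over the elements of coding hosts, which do not contain the units shown for Zfp629, Zscan2 and Zfp46.

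KAP1 lay over 50 of the 175 elements (28.6%, 22% to 35.9%), where 22.5% of all 560 elements were covered. WT H3K9me3 lay over 58 of them (33.1%, 26.2% to 40.6%), where 22.1% of all elements were covered. The SETDB1 list contributed 20 elements (11.4%, 7.12% to 17.1%), against 11.1% of all elements. In Kap1 KO MEF, 0 of the 175 elements had an H3K9me3 peak, which allows a share of up to 1.71% (exact upper bound 2.09%), and 0.179% of all elements had one. WT H3K27ac lay over 2 elements and Kap1 KO H3K27ac over 2, against 0.357% and 0.536% of all elements. At least 1 of KAP1 and WT H3K9me3 was found over 72 elements (41.1%), and 103 elements had neither.

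**Figure D1:**
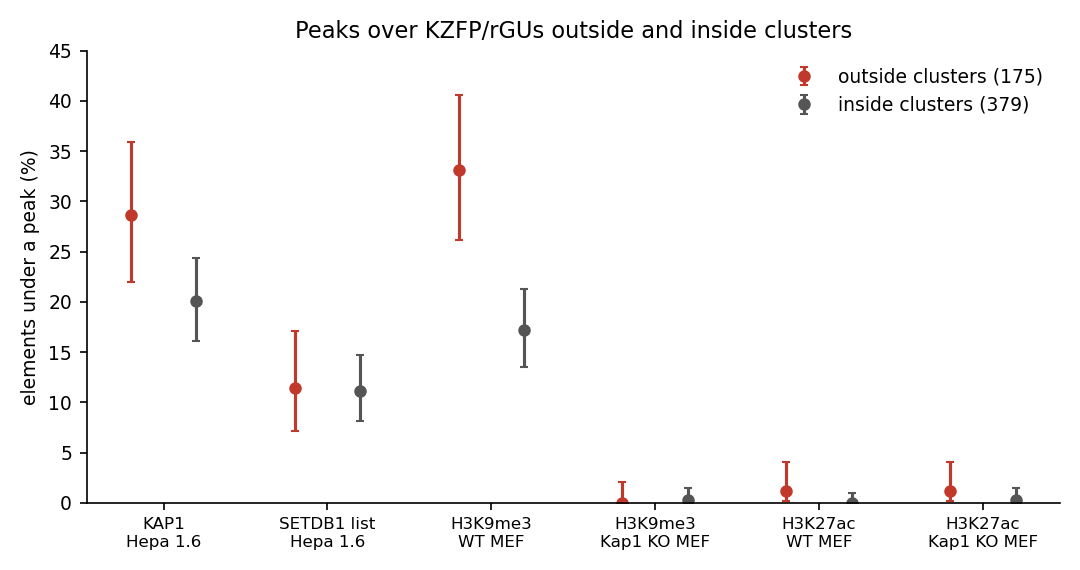
Share of elements under at least 1 peak of each list (y axis, %), for KZFP/rGUs outside clusters (red) and inside clusters (grey). Points are shares in 1 library, bars are exact 95% intervals over elements, and the largest gap is that of WT H3K9me3, 33.1% against 17.2%.

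H3K9me3 was the mark by which the elements outside clusters stood apart most. Its share exceeded that of clustered elements, 65 of 379 (17.2%), by 16 percentage points (Newcombe 95% interval 8.26 to 24). For KAP1, the difference from 76 of 379 clustered elements (20.1%) was 8.52 points (0.98 to 16.5). The SETDB1 list did not separate them, with a difference of 0.347 points (-4.94 to 6.57). With elements joined only under 250 kb, the differences were 9.1 points for WT H3K9me3 and 4.38 points for KAP1. Among elements in coding exons alone, the differences were 11.7 points for WT H3K9me3 (1.99 to 21.7) and 9.68 points for KAP1 (0.502 to 19.3). Clustered elements were wider, and a wider element has more bases that a peak can touch. Among elements of at least 778 bp, 44 of 87 outside and 54 of 302 inside clusters had WT H3K9me3, a difference of 32.7 points (21.4 to 43.7). For KAP1 this comparison gave 38 of 87 and 69 of 302, or 20.8 points (9.68 to 32.2). The median score of WT H3K9me3 peaks was 212 over elements outside clusters and 120.3 inside. How many reads could be placed uniquely at either kind of element was not measured.

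KAP1 in Hepa 1.6 and H3K9me3 in WT MEF often met at the same elements. Of the 50 elements with KAP1, 36 also had WT H3K9me3 (72%, 57.5% to 83.8%), whereas 22 of the 125 without KAP1 had it (17.6%, 11.4% to 25.4%). Conversely, 36 of the 58 elements with WT H3K9me3 had KAP1 (62.1%). Inside clusters, 41 of 76 elements with KAP1 (53.9%) and 24 of 303 without it (7.92%) had WT H3K9me3. The meeting of these marks is thus not particular to the elements outside clusters. Both were also more frequent over wider elements, and the part of width in their meeting was not tested. KAP1 with the SETDB1 list and H3K9me3 was found at 12 elements, KAP1 with H3K9me3 outside the SETDB1 list at 24, and KAP1 with the SETDB1 list but no H3K9me3 at 8. Another 6 elements had KAP1 alone and 22 had H3K9me3 alone.

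**Figure D2:**
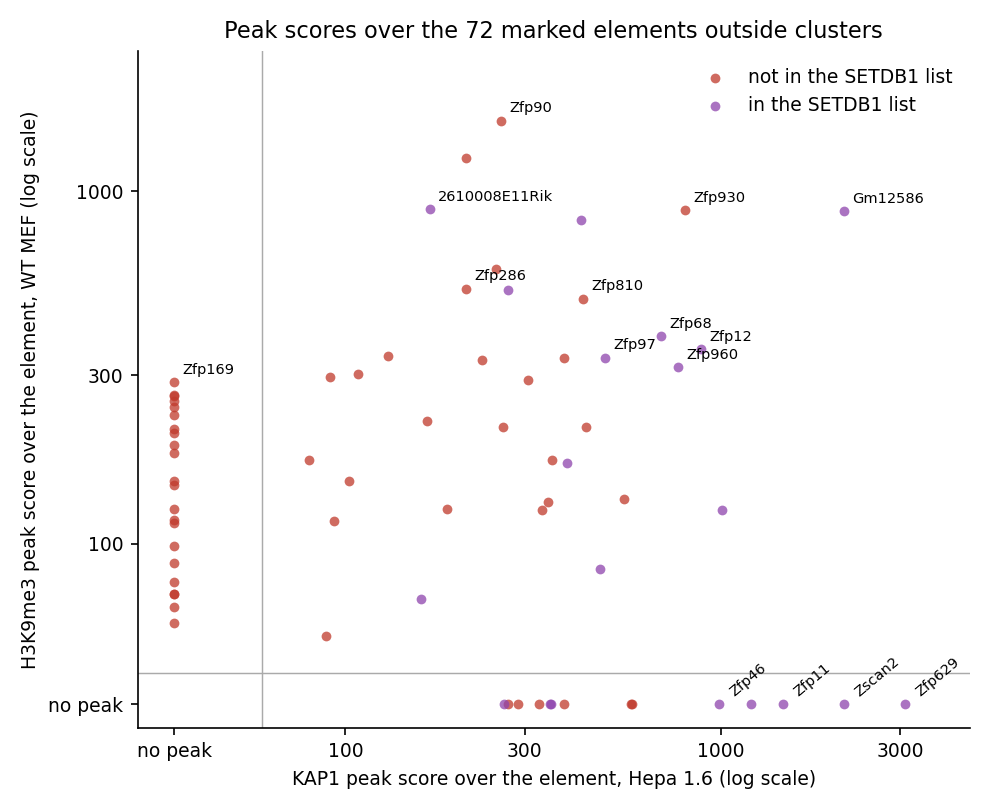
Score of the best peak over each of the 72 marked elements, KAP1 in Hepa 1.6 (x axis) against H3K9me3 in WT MEF (y axis), both on log scales, with elements lacking a peak set in the margins. Purple points are in the SETDB1 list, and the 4 named ones in the lower margin, Zfp46, Zfp11, Zscan2 and Zfp629, had KAP1 scores from 991 to 3100 and no MEF H3K9me3 peak.

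The best H3K9me3-marked host gene was Zfp90, a KZFP gene on chromosome 8. Its WT MEF peak scored 1584.9 and spanned 3325 bp over the whole element (chr8:108947342-108950666), with a KAP1 peak of score 260 inside it. A KAP1 peak of score 149 also lay at the start of Zfp90, where H3K27ac peaks of score 3100 were listed in both genotypes. 2610008E11Rik on chromosome 10 came second, with an H3K9me3 score of 889.75 over 2827 bp and a KAP1 and SETDB1 list score of 168. Zfp930 on chromosome 8 had an H3K9me3 score of 881.21 and a KAP1 score of 801. Its H3K9me3 peak of 3079 bp began downstream of the gene start, within 1000 bp of it, and ran past the 3' end, and no H3K27ac peak lay at the start. The 3 genes thus held H3K9me3 over the fingers with an acetylated start in the first 2 and without one in Zfp930. The annotated Zfp930 gene is 2638 bp long, so that its start lies close to the element.

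The next host genes by H3K9me3 were Gm10033 (600.86), Zfp286 (528.84), Gm6020 (524.28) and Zfp810 (494.8). Zfp68 (386.73), Zfp12 (355.77) and Zfp157 (339.29) completed the 10 highest. All 10 also had a KAP1 peak over the element, and 7 of them carried DVMLE. Zfp68, Zfp12 and Zfp157 lie on chromosome 5, and all 3 had H3K27ac at the start in both genotypes. In contrast, Gm10033, Gm6020, Zfp286 and Zfp810 had no H3K27ac peak at the start in either genotype.

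Host genes that combined KAP1, the SETDB1 list and WT H3K9me3 over the element numbered 6. Zfp12 had a KAP1 score of 887, Zfp960 of 770, Zfp68 of 691, Zfp97 of 490, Gm6020 of 271 and 2610008E11Rik of 168. Zfp960 and Zfp97 are neighbouring paralogs on chromosome 17, whose elements were both 2150 bp wide and identical at 2118 bases (98.5%). Their proteins shared 526 of 546 residues, so that reads of the 2 genes can be hard to tell apart and their peaks are uncertain. Their WT H3K9me3 scores were 316.21 and 336.5.

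The strongest KAP1 peaks lay elsewhere. Zfp629 on chromosome 7 had a KAP1 score of 3100 (chr7:134754328-134756027), Zscan2 on the same chromosome 2125, Zfp11 on chromosome 5 1460 and Zfp46 on chromosome 4 991. All 4 were in the SETDB1 list, all 4 had H3K27ac at the start in both genotypes, and 0 had an H3K9me3 peak over the element in either genotype. Zfp12, Zfp930, Zfp960 and Zfp68 followed, and then 2610021A01Rik (580) and D3Ertd254e (575), which had KAP1 without the SETDB1 list and without H3K9me3. For these 6 genes, a difference between the cell types cannot be told apart from one between KAP1 and H3K9me3.

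Over all coding hosts, the 11 elements with KAP1 but no WT H3K9me3 had a median G and C content of 53.7% (35.9% to 60.6%) and 33.9 CpG per kb. The 25 elements with both peaks had 39% (34.2% to 56%) and 7.54 CpG per kb. The 18 with H3K9me3 alone had 42.6%, and the 74 with neither had 46.1%. The ranges of all 4 classes overlapped. These values are a description of the elements, and the classes also differed in width, with medians of 564 bp for KAP1 alone and 1032 bp for both.

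Of the 34 elements between genes, 13 had KAP1 (38.2%, 22.2% to 56.4%), 8 were in the SETDB1 list (23.5%, 10.7% to 41.2%) and 14 had WT H3K9me3 (41.2%, 24.6% to 59.3%). The shares in coding exons were 28.1% (20.5% to 36.8%), 8.59% (4.37% to 14.9%) and 33.6% (25.5% to 42.5%), with overlapping intervals for each list. Such overlap does not show that the shares are alike, and intervals of their differences were not computed. Of the 13 elements in introns or other exons, 1 had these peaks. The highest H3K9me3 score there, 1241.99, lay at an element between genes on chromosome 8 (element start 87678476, end 87678682), with a KAP1 score of 210. On chromosome 17, an intergenic element from 17176172 to 17178334 had a KAP1 and SETDB1 list score of 1205 and no H3K9me3. Another from 17401387 to 17402801 had 1004 and an H3K9me3 score of 124.75. At 95216725 to 95218283 on that chromosome, a single element lay in an H3K9me3 peak of 6085 bp with a score of 828.06 and a KAP1 score of 425. The fifth of this group, at 105012064 to 105012212 on chromosome 5, had a KAP1 score of 477 and an H3K9me3 score of 84.56. Gm12586, a unit on chromosome 11 in an exon outside protein-coding annotation, had a KAP1 score of 2131 and an H3K9me3 score of 877.95, and was picked after its values were seen.

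In Kap1 KO MEF, none of these H3K9me3 peaks over elements was listed. All 58 elements with a WT peak lacked a Kap1 KO peak, and the reverse class was empty. Over all 560 elements, 124 had a WT peak (22.1%) and 1 a Kap1 KO peak (0.179%), and inside clusters 65 and 1 of 379 did. The near absence of Kap1 KO peaks is thus not particular to the elements outside clusters. Within 10000 bp of an element, 73 elements had a WT peak (41.7%, 34.3% to 49.4%) and 8 had a Kap1 KO peak (4.57%, 1.99% to 8.81%), where 29.8% and 2.86% of all 560 elements had one. Inside clusters, the shares were 24.3% (20% to 28.9%) and 2.11% (0.916% to 4.12%). The 8 included the neighbourhoods of Zfp167, Gm10033 (134.1 at 4042 bp) and Zfp454 (55.09 at 4186 bp). Near Zfp167, 2 Kap1 KO peaks had a highest score of 227.66, and the gap of 8447 bp need not be that of the higher one. An element on the same chromosome (122818262 to 122819030) had the same highest score and a gap of 3042 bp. The 8 elements are thus not read as 8 separate Kap1 KO sites. The Kap1 KO list held 4319 peaks and the WT list 14425. With both lists cut to the same number of peaks by score, 48 elements had a WT peak and 0 had a Kap1 KO peak. No read counts back these lists, so that the part of depth in the difference was not tested.

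As a check on the labels, Trim28 had an H3K27ac peak of score 3100 at its start in both MEF lists. A peak at the promoter does not show whether the deleted exons are present, so that the knockout itself cannot be checked from these lists. H3K27ac at the start was listed for 12 of 13 fibroblast markers in WT and 11 of 13 in Kap1 KO, the difference being Pdgfra. It was listed for 0 of 5 hepatocyte and 0 of 3 pluripotency markers in either genotype. Cd68 of 3 immune markers had scores of 258.57 in WT and 118.21 in Kap1 KO, Pecam1 of 2 endothelial markers had 174.31 and 161.21, and Krt8 of 3 epithelial markers had one in WT only. Of the KAP1 pathway list, 22 of 22 genes found in the annotation had H3K27ac at the start in both genotypes, 0 had H3K9me3 there and 6 had KAP1.

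The starts of the host genes were mostly acetylated. WT H3K27ac was listed within 1000 bp of the start of 95 of the 128 host genes (74.2%, 65.7% to 81.5%) and Kap1 KO H3K27ac at 93 (72.7%, 64.1% to 80.2%). Over all 21418 autosomal protein-coding genes, the shares were 52.6% and 51.1%. Hosts inside clusters had 66.2% and 70.1%, differences of 8.04 points (-2.21 to 17.6) and 2.56 points (-7.6 to 12.2) that did not separate the groups. The scores at the starts ran from 293.41 to 3153.29 in WT and from 130.59 to 3135.15 in Kap1 KO. Of the WT peaks there, 52 stood at 3100 or above, where the score has a ceiling, and 38 of the Kap1 KO peaks did.

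Acetylation of the start changed its listing between genotypes at 2 host genes, and both lacked it in Kap1 KO. Zfp941 on chromosome 7 had a WT peak of score 926.75 (chr7:148006567-148008453), and the middle of the nearest Kap1 KO peak lay 9661 bp from the start. Zfp791 on chromosome 8 had a WT peak of score 293.41 (chr8:87642863-87644103), and the nearest Kap1 KO peak lay 14277 bp away. No host gene had H3K27ac at its start in Kap1 KO only. Starts listed in 1 genotype only were not counted over all autosomal protein-coding genes, of which 52.6% had a start peak in WT and 51.1% in Kap1 KO. Whether the hosts differ from other genes in this is therefore not known. Neither gene had KAP1 or H3K9me3 over its element. Among the 93 host genes listed in both genotypes, the WT score was higher at 51, the Kap1 KO score at 8 and the scores were equal at 34. At 37 of the 93, both scores stood at 3100 or above, where the ceiling allows no ordering. They include Zfp192, Zfp41 and Zfp37, which the tally counts as higher in Kap1 KO. The whole lists had median scores of 686 (WT) and 576 (Kap1 KO), and no such tally over all genes is given here. Wide gaps, named after their values were seen, were those of Zfp617 (2915.38 in WT, 469.57 in Kap1 KO), Zfp3 (1762.39, 153.62) and Zfp101 (1977.51, 297.96), and in the other direction Zfp287 (941.19, 2881.97). The 250 bases before each start are shown in mm9, read on the strand of the gene, because these were the only host genes with a start peak listed in 1 genotype, with each CpG in capitals.
Zfp941, chr7:148008078-148008327, minus strand: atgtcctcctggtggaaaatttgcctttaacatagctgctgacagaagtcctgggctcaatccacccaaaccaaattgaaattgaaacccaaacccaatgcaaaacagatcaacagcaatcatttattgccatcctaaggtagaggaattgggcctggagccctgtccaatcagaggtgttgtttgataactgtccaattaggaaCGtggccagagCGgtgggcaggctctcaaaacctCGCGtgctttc
Zfp791, chr8:87643537-87643786, minus strand: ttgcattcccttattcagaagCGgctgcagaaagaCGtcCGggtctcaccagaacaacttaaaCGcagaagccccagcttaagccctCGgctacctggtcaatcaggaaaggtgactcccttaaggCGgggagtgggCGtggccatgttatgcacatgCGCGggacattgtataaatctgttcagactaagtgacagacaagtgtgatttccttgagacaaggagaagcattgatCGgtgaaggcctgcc

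The Zfp941 stretch held 4 CpG and that of Zfp791 held 10. Over all host genes, the median was 9 CpG, as over the 19227 protein-coding genes of the same chromosomes. Host genes with WT H3K27ac at the start had a median of 10 CpG (3 to 52, n = 95), and those without had 3 (0 to 37, n = 33). At least 10 CpG were found in 55.8% of the former and 15.2% of the latter, against 48% of all those genes. Host genes without start H3K27ac included short annotated genes such as Gm6020 (66 bp), whose annotated start may not be a promoter.

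KAP1 lay at the start of 28 host genes (21.9%, 15.1% to 30%), against 18% of all genes. Hosts inside clusters had it in 11 of 204 (5.39%), a difference of 16.5 points (9.03 to 24.7). Among the 302 other autosomal genes with at least 3 C2H2 matches and no listed element, 26.8% had it, and the difference of -4.95 points (-13.1 to 4.26) did not separate them from the hosts outside clusters. At 4 of the 28, the peak within 1000 bp of the start was the one over the element. The other 24 start peaks had scores from 80 to 288 with a median of 134, below the median of 330 over the elements of coding hosts. All 24 starts also had WT H3K27ac, 0 of the 24 peaks were in the SETDB1 list, and 17 of the genes had no KAP1 over the element. Over all 21418 genes, KAP1 lay at 3858 starts and the SETDB1 list held 328, so that a 0 among 24 is not read as a trait of these hosts. With only the higher-scoring 50% of KAP1 peaks, 10.2% of the host gene starts had one. Zfp959 (288), Zfp12 (244) and Zfp248 (224) had the highest of these start peaks, named after their values were seen. The SETDB1 list held the start of 1 host gene, Gm6020, against 1.53% of all genes.

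WT H3K9me3 lay at the start of 11 host genes (8.59%, 4.37% to 14.9%), against 2.1% of all genes. At 6 of them the peak was the one over the element, and the annotated genes of these 6 were 66 to 2638 bp long. At genes this short, a window at the start can reach the element, so that these peaks need not lie at a promoter. Of the 11, 10 lacked WT H3K27ac at the start, the exception being Gm9631. Kap1 KO H3K9me3 was listed at 1 start, that of Zfp612, with a score of 54.71, against 0.598% of all genes. The 43 host genes with WT H3K9me3 over the element had WT H3K27ac at the start in 58.1% of cases, and the 85 without it in 82.4%. The Kap1 KO shares of the same genes were 58.1% and 80%. The 43 include the 6 short annotated genes, and shares without them were not computed.

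**Figure D3:**
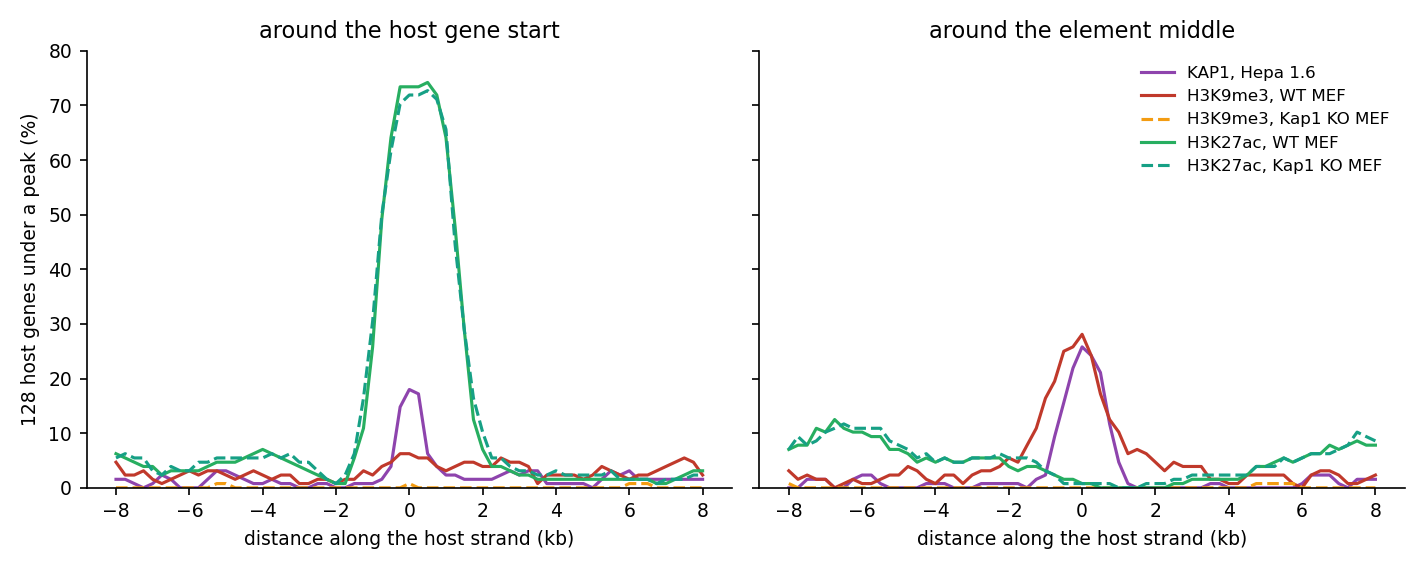
Share of the 128 host genes under a peak (y axis, %) at steps of 250 bp around the gene start (left) and around the middle of the element (right), along the strand of the gene. H3K27ac covers 73.4% (WT) and 71.9% (Kap1 KO) of gene starts, while at the element middle WT H3K9me3 covers 28.1%, KAP1 25.8% and Kap1 KO H3K9me3 0%.

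Within 1000 bp of the 3' end, WT H3K9me3 was found at 27 host genes (21.1%, 14.4% to 29.2%) and KAP1 at 18 (14.1%, 8.55% to 21.3%), against 1.65% and 3.26% of all genes. The SETDB1 list held 4 of these ends (3.12%), against 0.859% of all genes. It held 9.31% of those of hosts inside clusters, a difference of -6.19 points (-11.3 to -0.517). Kap1 KO H3K9me3 was at 0 of the 3' ends, against 0.402%. With any annotated transcript end of the gene in place of the outermost, the shares were 29.7% for WT H3K9me3, 24.2% for KAP1 and 7.81% for the SETDB1 list. Among the 302 other C2H2 genes, WT H3K9me3 was at 5.3% of 3' ends, 15.8 points lower (8.87 to 23.9). Hosts inside clusters had WT H3K9me3 at 17.2% and KAP1 at 15.7% of 3' ends, and the differences of 3.94 points (-4.51 to 13) and -1.62 points (-9.13 to 6.68) did not separate them from the hosts outside. All 27 ends with H3K9me3 and all 18 with KAP1 belonged to genes with a peak of the same list over the element. The 2 peaks were not always the same one. At 2610008E11Rik, the H3K9me3 peak at the end scored 212.54 and the one over the element 889.75. Where at most 2000 bp separated the element middle from the 3' end, 24 of 74 genes had H3K9me3 at the end, and where it lay farther, 3 of 54 did. Over the element itself, the shares of these groups were 35.1% and 31.5%. The shares over the element were alike at both distances. The contrast at the 3' end is largely set by the distance itself. H3K9me3 peaks over elements outside clusters had a median width of 1032 bp, so that one over a farther element seldom reaches a window of 1000 bp at the end. No conclusion is drawn from that contrast. In coding hosts, the middle of the KAP1 peak lay within 500 bp of the element middle at 35 of 36 elements, with a median of 102 bp downstream, and that of H3K9me3 at 34 of 43.

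H3K27ac was rare at the 3' ends, with 4 host genes in each genotype (3.12%), against 12.2% of all genes in WT and 11.2% in Kap1 KO. It was also rare over the elements. Zfp169 on chromosome 13 had a WT H3K27ac peak of score 3100 that covered 4418 bp (chr13:48585537-48589954) of the gene, part of the element and no annotated gene start. No Kap1 KO peak lay over the element, which also had WT H3K9me3 of score 287.34. Zfp560 on chromosome 9 went the other way in size, with scores of 219.35 in WT over 1608 bp and 3204.67 in Kap1 KO over 3122 bp, and a WT H3K9me3 score of 71.92. An element between genes next to it (20204616 to 20205961) had a Kap1 KO peak of 117.94 and no WT peak. With 1 library per genotype, these 3 places are values of single libraries.

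**Figure D4:**
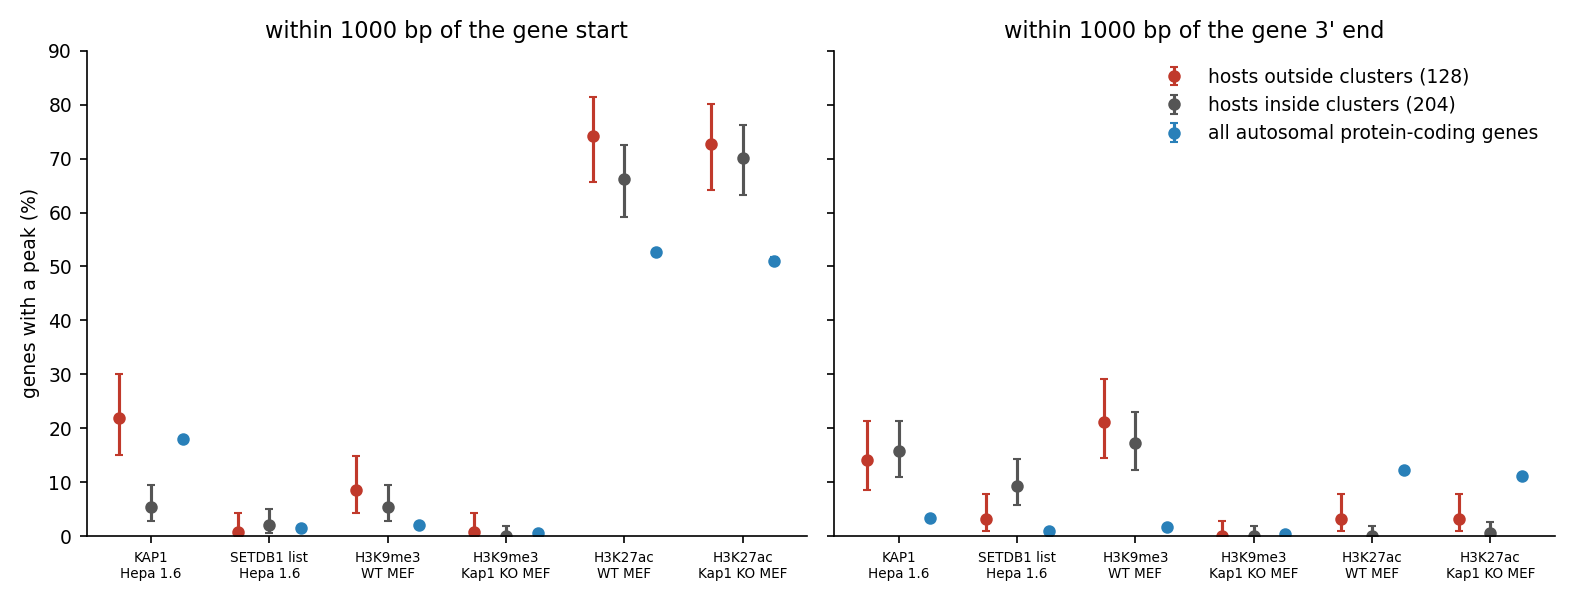
Share of genes with a peak within 1000 bp of the gene start (left) and 3' end (right) in each list (y axis, %), for hosts outside clusters (red), hosts inside clusters (grey) and all autosomal protein-coding genes (blue), with exact 95% intervals over genes. H3K27ac is the leading mark at starts, and WT H3K9me3 at 3' ends, with 21.1% of hosts outside clusters.

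The marks were unevenly spread over the kinds of zinc finger proteins. Host genes with 3 to 8 C2H2 matches had WT H3K9me3 over the element in 1 of 33 cases (3.03%), the exception being Gm12258, and KAP1 in 1 of 33, Zfp239. With 9 to 12 matches, 21 of 48 had H3K9me3 (43.8%) and 13 had KAP1 (27.1%). With 13 or more, 15 of 41 had H3K9me3 (36.6%) and 17 had KAP1 (41.5%). The median element width rose over these groups from 456 to 749 and 1032 bp. The remaining 6 hosts, Gm6712, Gm17635, Zfp950, Gm6020, D130040H23Rik and Gm10033, had 0 to 2 matches. All 6 had H3K9me3 over the element, 5 had KAP1 and 0 had H3K27ac at the start in WT. Their annotated proteins held 22 to 405 residues, and their annotated genes were 66 to 4230 bp long. The groups of matches were set after the data had been seen.

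**Figure D5:**
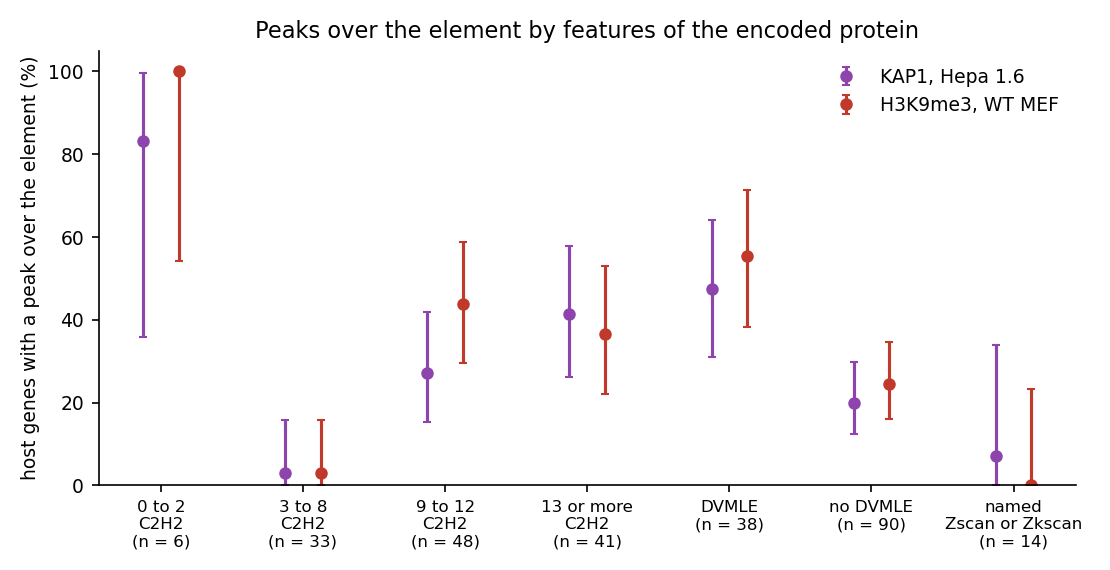
Share of host genes with KAP1 (purple) or WT H3K9me3 (red) over the element (y axis, %), by the number of C2H2 matches, the presence of DVMLE and the gene symbol, with exact 95% intervals over genes. Hosts with 3 to 8 matches and those named Zscan or Zkscan lie lowest.

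Proteins with DVMLE, taken as a sign of a KRAB A box, came from marked elements more often. KAP1 lay over 18 of their 38 elements (47.4%) and over 18 of the 90 others (20%), a difference of 27.4 points (9.75 to 44.2). WT H3K9me3 lay over 21 (55.3%) and 22 (24.4%), a difference of 30.8 points (12.4 to 47.3). H3K27ac at the start did not follow the letters, with 76.3% and 73.3% in WT. Hosts with DVMLE also had wider elements, with a median of 842 bp against 642 bp. In the widest of 4 width groups, KAP1 lay over 80% of 10 elements with DVMLE and 33.3% of 15 without (46.7 points, 6.88 to 69.8). In the next lower group, the shares were 61.5% of 13 and 25% of 24, and below it 10% of 10 and 7.69% of 26. In the narrowest group, the shares were 20% of 5 and 20% of 25. For WT H3K9me3, the differences were 8, 32.3, 26.9 and 26.7 points from the narrowest to the widest group. Only that of 32.3 points had an interval above 0 (3.88 to 61.6). The letters miss KRAB domains with other residues at these positions.

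SCAN domain proteins form another branch of zinc finger factors, in which the SCAN domain mediates dimer formation. Of the 14 hosts named Zscan or Zkscan, 0 had H3K9me3 over the element, which allows up to 21.4% (exact upper bound 23.2%), and 1 had KAP1, Zscan2. The other hosts had H3K9me3 in 37.7% and KAP1 in 30.7% of cases. Of these 14 genes, 10 had WT H3K27ac at the start (71.4%). Their elements had a median width of 459 bp. The class was set by gene symbol alone, and SCAN domains were not searched for. SCAN proteins with other symbols would count among the other hosts, so that no share of SCAN proteins as such is given.

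The local groups differed in their marks. On chromosome 13, the 7 elements from 21460739 to 22052027 (Zscan12, Zkscan3, Zfp187, Zkscan4, Zfp389, Zfp192 and Zfp184) had 0 KAP1 and 0 H3K9me3 peaks, while 5 of their 6 coding hosts had WT H3K27ac at the start. On chromosome 17, 5 of the 6 elements from 17176172 to 17456576, among them Zfp960, Zfp97 and Gm6712, had KAP1, 4 were in the SETDB1 list and 5 had H3K9me3. In the group of 5 on chromosome 8 around Zfp930 and Gm10033 (71751743 to 72187910), 3 had KAP1, 3 had H3K9me3 and 1 host had H3K27ac at the start. In the group of 7 on chromosome 9 from Zfp560 to 5730577I03Rik, 0 had KAP1 and 3 had H3K9me3. Single elements had H3K9me3 in 12 of 52 cases (23.1%), groups of 2 or 3 in 19 of 54 (35.2%) and groups of 4 to 7 in 27 of 69 (39.1%), with intervals that overlap. KAP1 had 30.8%, 25.9% and 29%. Intervals of the differences between these group sizes were not computed.

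Several host genes with known functions had neither KAP1 nor H3K9me3 over the element. They were named after their values were seen. Zfp809, which silences retroviral DNA in embryonic cells, Zfp445, which guards imprinted regions, and Rbak, a KZFP that binds the retinoblastoma protein, had none, and Zfp809 and Rbak had H3K27ac at the start in both genotypes. Prdm9, the methyltransferase that places recombination sites in meiosis, had a KAP1 score of 186 and an H3K9me3 score of 125.66 over its finger exon.

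Marked elements were more frequent among the more expressed ones. The 175 elements were ordered by the normalized RNA-Seq counts that accompany them and cut into 4 groups. In WT MEF, H3K9me3 lay over 12 of 44 elements in the lowest group (27.3%), 10 of 44, 15 of 44 and 21 of 43 in the highest (48.8%), a difference of 21.6 points (1.2 to 39.6). KAP1 by WT liver counts rose from 9 of 44 (20.5%) to 18 of 43 (41.9%), a difference of 21.4 points (1.94 to 38.9). Liver tissue stands here for Hepa 1.6 cells, which have no column of their own. The lowest group held few coding hosts. Among coding hosts alone, the differences were 4.74 points for H3K9me3 (-23.6 to 30.2, 38 and 15 genes) and 9.21 points for KAP1 (-21.9 to 31.8, 38 and 12 genes). The expression counts summarise the same element over which the peak was sought, and counts of similar elements may share reads. Wider elements can also collect more reads, and they had more peaks. In the narrowest and widest of 4 width groups, WT H3K9me3 lay over 15.9% and 48.8% of elements, and KAP1 over 20.5% and 53.5%. The part of width in the differences by expression was not tested. WT H3K27ac at the start was found at 3 of 15 coding hosts in the lowest MEF group (20%) and at 31 of 38 in the highest (81.6%).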

How the data were processed

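The 6 deposited peak lists came from ChIP-Seq of KAP1 and SETDB1 in Hepa 1.6 cells and of H3K9me3 and H3K27ac in WT and Kap1 KO MEF, with 1 library per condition. The authors mapped the reads to mm9 with Bowtie 2 and used MACS, with total input as the control, to call peaks, and the submitters' processing notes name Bowtie2 2.2.1 and MACS 1.4. Each peak carries the MACS score given by the authors. The stated cutoff score is 80, while the deposited MEF lists reach lower scores. Read counts per peak and depth are not given in the sources used here. No column of the authors' own comparisons was used, and libraries of other cell types were not analysed here.

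The members and lists were chosen with earlier results of these data known. Elements less than 500 kb apart were joined, and groups of at least 8 were called clusters. An element or a window of 1000 bp around a gene start or 3' end was called marked where it shared at least 1 bp with a peak. Coding genes came from GENCODE vM1 (mm9), and the host gene was the coding gene whose exons shared most bases with the element. C2H2 matches and the string DVMLE were counted in translated coding sequences of that annotation, where RefSeq proteins had been planned. Expression given with the elements was used only to order them into 4 groups. Shares have Clopper-Pearson intervals (SciPy 1.17.1) and differences of shares have Newcombe intervals (statsmodels 0.14.6), both at 95%, and no test between conditions was made. Python 3.11.15 with NumPy 2.4.6 and matplotlib 3.10.9 was used, and overlaps were tested on simulated data against bedtools 2.31.1.

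Named host genes were the 10 with the highest WT H3K9me3 score and the 10 with the highest KAP1 score over the element, those with KAP1, the SETDB1 list and WT H3K9me3 together (up to 8), elements with Kap1 KO H3K9me3 (up to 5, none found), genes with start H3K27ac in 1 genotype only (up to 5 in each direction), elements under H3K27ac (up to 5) and the 5 best marked elements outside genes. Genes named otherwise were picked after their values were seen. Alternatives covered the peak score, the overlap, the window, the cluster definition, chromosome X, 1 element per host gene, equal peak numbers and other expression groups. Wider elements only and any annotated transcript start or end were added after seeing the data. The groups of C2H2 matches, DVMLE and symbol classes were descriptive.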

Additional observations from a re-analysis of the deposited data

How the results depend on the processing

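Of 173 alternative values, 150 stayed within the margin set for them and 23 moved. Some of the 150 could not move, so that the tally overstates stability. Keeping 1 element per host gene left the same 175 elements. A score of at least 80 removed no KAP1 or SETDB1 list peak, because 80 is their lowest score. A count of 0 stays 0 in any subset of the peaks. No difference between elements outside and inside clusters whose interval lay on 1 side of 0 changed sign. Differences whose interval spanned 0 did: that of the SETDB1 list went from 0.347 to -0.322 points with clusters of at least 6 and to -1.75 points with gaps under 250 kb, and that of Kap1 KO H3K27ac from 0.879 to -0.719 points with clusters of at least 6. Among elements of at least 778 bp, the shares outside clusters were 43.7% for KAP1, 17.2% for the SETDB1 list and 50.6% for WT H3K9me3. With clusters of at least 6 elements, 137 elements were outside clusters and 0 of them had Kap1 KO H3K27ac. With the higher-scoring 50% of each list, KAP1 was at 10.2% of host gene starts, Kap1 KO H3K9me3 at 0 and Kap1 KO H3K27ac at 64.1%. With any annotated transcript 3' end, the shares were 24.2% for KAP1, 7.81% for the SETDB1 list, 29.7% for WT H3K9me3, 7.81% for WT H3K27ac and 10.2% for Kap1 KO H3K27ac. In a window of 500 bp, 3' ends had WT H3K27ac in 0 and Kap1 KO H3K27ac in 0.781% of cases. In a window of 2000 bp, 1 host gene had start H3K27ac in Kap1 KO only, as did 1 with any annotated transcript start. Apart from the sets with fewer elements or peaks by construction, the cause was not tested.

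No paired analysis was possible because each condition had 1 library. Leaving out a replicate was not possible for the same reason. The lists hold no read counts, so that signal below the threshold, and H3K27ac differences above the score ceiling near 3100, could not be measured.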
